A study of Mus musculus with 5 samples.

Results

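Ampd1 and 9 other genes of AMP deamination and purine salvage were followed in RNA-seq libraries of mature thymocytes of the CD8 single-positive (SP) stage, purified by flow sorting, the last thymic stage of the CD8 T cell lineage. The 10 genes (Ampd1, Ampd2, Ampd3, Ada, Adk, Pnp, Hprt, Aprt, Nt5e and Dck) were taken by symbol from 35976 rows per library, and all 10 had enough reads to be tested. Of the 5 libraries, 3 came from Runx3 +/WRPW mice, which carry 1 copy of an allele named WRPW beside 1 wild-type copy, and 2 from Runx3 +/+ mice, which carry none. The labels give no strain, age or further allele, and do not say whether each library came from its own animal, so the errors below measure the spread between libraries, which may be technical. Runx3 is a Runt-domain transcription factor of the CD8 lineage. Runx proteins end in a short motif that binds the Groucho/TLE corepressors, and WRPW is the form of that motif found in the Hes repressors.

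Cells make purine nucleotides from small precursors or salvage them from free bases and nucleosides. AMP deaminase turns AMP into IMP, adenosine deaminase (Ada) turns adenosine and deoxyadenosine into inosine forms, and adenosine kinase (Adk) and deoxycytidine kinase (Dck) phosphorylate nucleosides, while Pnp, Hprt and Aprt work at the level of the free bases. Thymocytes are sensitive to this balance: loss of ADA or PNP in humans lets deoxynucleosides and their triphosphates build up and causes a severe T cell deficiency.

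Ampd1 was chosen by its large fitted drop in this same contrast of genotypes, and the other 9 by their place in the pathway with the fold changes of that contrast known. Their differences between the genotypes are therefore a description, and no test is attached to them. Levels are given as CPM, read counts scaled to the library total, with TMM factors that correct for library composition. Each fold change sets Runx3 +/WRPW over Runx3 +/+ and comes from an edgeR fit over 13666 genes, with the standard error (SE) of that fit. In the fit, 5 of the 10 genes had a Benjamini-Hochberg adjusted p under 0.05, namely Ada and Aprt, higher in Runx3 +/WRPW, and Ampd1, Adk and Dck, lower. With 1 library left out this number was 1 (without Runx3 +/+ library 1 or 2, Ampd1 in both), 2 (without Runx3 +/WRPW library 1) or 3 (without Runx3 +/WRPW library 2 or 3). Over all genes tested, 13.6% passed that threshold, 6.24% higher and 7.33% lower. The libraries of the genotypes did not overlap in 7 of the 10, and in 48.5% of all genes. Given how the genes were chosen, nothing is read from these shares. The median log2 fold change was -0.06 over the 10 genes, against 0.02 over all genes tested.

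The libraries held 15715242 to 43758550 counts. Runx3 +/WRPW library 2 stood apart, with a count at 27414 genes, against 17237 to 18967 in each of the other 4, and values without it are given where they differ. Runx3 itself was at 394, 341 and 422 CPM in Runx3 +/WRPW and at 273 and 357 CPM in Runx3 +/+, which does not show the allele. Summed over 6 CD8 T cell marker genes, the libraries had 5100 to 5730 CPM in Runx3 +/WRPW and 6000 and 6150 CPM in Runx3 +/+, with 1 of the 6, Cd3d, lower by the edgeR test; Cd4 was at 0.046 to 0.374 CPM in Runx3 +/WRPW and at 0.467 and 5.36 CPM in Runx3 +/+. Markers of dividing cells differed most, with 10 of 10 lower in Runx3 +/WRPW by the edgeR test and a sum of 86.2 to 99.3 CPM, against 600 and 648 CPM in Runx3 +/+. In bulk RNA, fewer dividing cells and less of these transcripts per cell cannot be told apart.

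Ampd1 (chromosome 3, 103073897 to 103099720, mm10) encodes the isoform best known from skeletal muscle. It had 75, 37 and 31 counts in Runx3 +/WRPW libraries 1, 2 and 3, against 524 and 625 counts in Runx3 +/+ libraries 1 and 2. After scaling, these were 1.71, 2.30 and 1.43 CPM in Runx3 +/WRPW and 24.5 and 25.0 CPM in Runx3 +/+. All 3 Runx3 +/WRPW libraries were thus far below both Runx3 +/+ libraries, which lay close together. Library 2 was the highest of the 3 Runx3 +/WRPW libraries. The mean was 1.81 ± 0.448 CPM in Runx3 +/WRPW (SD, n = 3) and 24.7 ± 0.360 CPM in Runx3 +/+ (SD, n = 2), and the fitted log2 difference was -3.79 ± 0.19 (SE), or 13.8-fold lower. Without any 1 library it stayed between -3.96 and -3.66.

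Muscle markers were low throughout. The summed level of 8 skeletal muscle genes was 2.99, 7.66 and 3.45 CPM in Runx3 +/WRPW and 4.90 and 3.48 CPM in Runx3 +/+, and Mb and Myl1 had no count in any library; 2 of the 8 were tested and neither passed. Some markers of other cells did move with it. The sum of 5 B cell genes was 3.04 to 5.36 CPM in Runx3 +/WRPW and 9.71 and 9.75 CPM in Runx3 +/+, mostly through Cd79b (1.79 to 2.19 against 7.55 and 7.57 CPM), 1 of 2 tested genes that passed. The sum of 7 fibroblast or endothelial genes was 78.5 to 101 CPM in Runx3 +/WRPW and 147 and 187 CPM in Runx3 +/+, through Pecam1, at 77.2 to 100 against 143 and 183 CPM, 1 of 4 tested genes that passed. Pdgfra and Dcn had no count in Runx3 +/+. Of 6 immature thymocyte genes, with sums of 30.6 to 42.3 CPM against 46.3 and 47.4 CPM, 4 were tested and 1, Dntt, was lower. The part of these cells in the level of Ampd1 was not tested.

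Ampd2 (chromosome 3, 108074059 to 108086687), the isoform of most tissues, was by far the most abundant of the 3 in every library. It stood at 77.9, 76.3 and 74.9 CPM in Runx3 +/WRPW and at 73.2 and 69.3 CPM in Runx3 +/+. The genotypes did not overlap, but the log2 difference was only 0.10 ± 0.06 (SE). Ampd3 (chromosome 7, 110767790 to 110812409), known as the isoform of red blood cells, was low, at 3.91, 3.42 and 2.85 CPM in Runx3 +/WRPW and 2.85 and 7.07 CPM in Runx3 +/+. Its libraries overlapped, and the log2 difference of -0.55 ± 0.40 became 0.24 without Runx3 +/+ library 2, the highest of the 5. Of 7 erythroid markers, Hba-a1 and Hba-a2 had no count in any library, and the sum was 0.506 to 0.891 CPM in Runx3 +/WRPW and 0.467 and 0.639 CPM in Runx3 +/+. Without strand information, reads of Ampd3 could in part belong to Rnf141, which shares 195 exonic bases with it on the other strand, and those of Ampd2 to the antisense gene Gm12500 (434 bases).

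Set per kb of exon, so that genes can be compared, the 3 AMP deaminase genes together gave 16.1, 15.9 and 15.3 CPM per kb in Runx3 +/WRPW and 21.4 and 21.6 CPM per kb in Runx3 +/+. Ampd1 made up 3.00%, 4.09% and 2.64% of this sum in Runx3 +/WRPW and 32.2% and 32.6% in Runx3 +/+. The share of Ampd2 was 92.9 ± 1.01% in Runx3 +/WRPW (SD, n = 3) and 63.5 ± 2.76% in Runx3 +/+ (SD, n = 2), and that of Ampd3 was 3.83 ± 0.498% and 4.10 ± 2.45%. The AMP deaminase RNA of Runx3 +/WRPW cells was thus nearly all Ampd2, while Runx3 +/+ cells had Ampd1 as the next isoform. With the longest coding transcript as the length of each gene, chosen after the data were seen, Ampd1 made up 2.78% in Runx3 +/WRPW and 29.0% in Runx3 +/+.

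**Figure D1:**
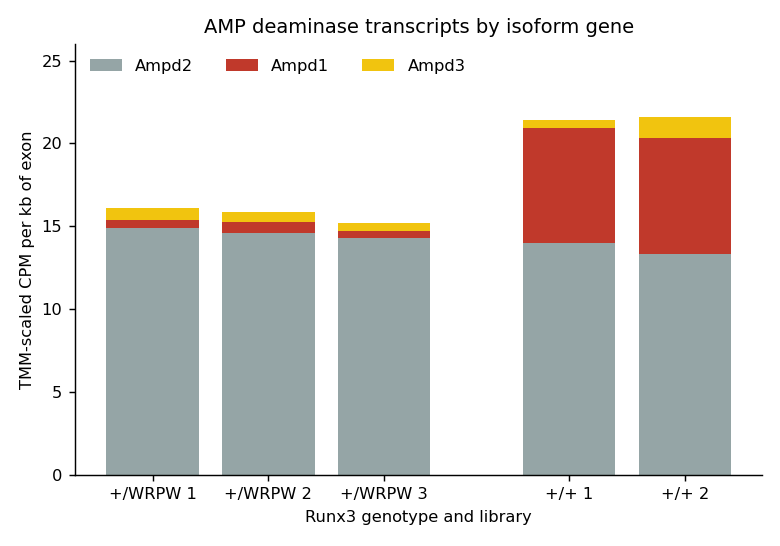
AMP deaminase transcripts in each library, as TMM-scaled CPM per kb of exon, stacked by gene. The bars of Runx3 +/WRPW end between 15.3 and 16.1 and those of Runx3 +/+ at 21.4 and 21.6, and the red Ampd1 segment is a thin band in Runx3 +/WRPW and about as wide in both Runx3 +/+ bars.

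Ada (chromosome 2, 163726571 to 163750239) removes adenosine and deoxyadenosine. It was at 50.5, 54.9 and 44.1 CPM in Runx3 +/WRPW and at 34.6 and 27.3 CPM in Runx3 +/+, without overlap, a log2 difference of 0.69 ± 0.14 (SE), or 1.61-fold. Adk (chromosome 14, 21052574 to 21448569), which returns adenosine to AMP, went the other way. It was at 10.8, 12.5 and 10.6 CPM in Runx3 +/WRPW and at 16.6 and 18.5 CPM in Runx3 +/+, also without overlap, a log2 difference of -0.64 ± 0.12 (SE), or 1.56-fold lower. The ratio of Ada to Adk counts in the same library was 4.66, 4.41 and 4.17 in Runx3 +/WRPW and 2.08 and 1.48 in Runx3 +/+.

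Nt5e (chromosome 9, 88327609 to 88372089) encodes CD73, the surface enzyme that makes adenosine from AMP outside the cell. Its level varied more within the genotypes than between them. It was at 12.3, 117 and 5.75 CPM in Runx3 +/WRPW libraries 1, 2 and 3 and at 5.46 and 22.8 CPM in Runx3 +/+ libraries 1 and 2. Runx3 +/WRPW library 2 alone was high, with 1884 counts. The fitted log2 difference of 1.63 ± 1.34 (SE) became -0.64 without that library, so that no direction can be given. That library also held a low scatter of reads over many silent genes: of 14743 genes with no count in the other 4, 7350 had one there. With the genes that had no count there included, the 99th percentile of these silent genes was 2.25 CPM per kb of exon. Nt5e was at 13.6 CPM per kb. Summed markers of myeloid cells were also highest there, at 13.2 CPM, against 1.29 to 1.77 CPM in the other 4 libraries. So were those of thymic epithelium (13.9 CPM, against 3.04 to 5.12 CPM) and of skeletal muscle (7.66 CPM, against 2.99 to 4.90 CPM). The myeloid and epithelial sums rose in part through genes near silent in the other 4, such as Flt3 (6.04 CPM) and Foxn1 (4.67 CPM). Other listed genes were not highest there: Lyz2 and Aire were at 0.125 CPM, Krt5 at 0.249 CPM, and S100a8 and Krt8 at 0. The part of these scattered reads, or of other cells, in the level of Nt5e was not tested.

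Dck (chromosome 5, 88765013 to 88783277), which phosphorylates deoxycytidine, deoxyadenosine and deoxyguanosine, had the next largest drop after Ampd1. It was at 43.9, 33.9 and 46.7 CPM in Runx3 +/WRPW and at 74.4 and 84.9 CPM in Runx3 +/+. All Runx3 +/WRPW libraries were below, by a log2 difference of -0.94 ± 0.14 (SE), or 1.91-fold, with the dividing-cell markers lower in the same libraries as given above; their part was not tested. Aprt (chromosome 8, 122574637 to 122576907) makes AMP from adenine. It was at 48.9, 51.1 and 46.1 CPM in Runx3 +/WRPW and at 37.8 and 38.8 CPM in Runx3 +/+, a log2 difference of 0.35 ± 0.07 (SE) with no overlap. Hprt (chromosome X, 52988078 to 53021660), which makes IMP and GMP from hypoxanthine and guanine, was slightly lower, at 84.3, 76.7 and 82.2 CPM in Runx3 +/WRPW and at 97.1 and 93.0 CPM in Runx3 +/+ (log2 difference -0.23 ± 0.07, SE). The ratio of Aprt to Hprt counts was accordingly 0.580, 0.666 and 0.561 in Runx3 +/WRPW and 0.389 and 0.417 in Runx3 +/+. Pnp (chromosome 14, 50944303 to 50953412), which splits inosine and guanosine into base and sugar phosphate, overlapped between the genotypes, at 13.2, 12.3 and 15.1 CPM in Runx3 +/WRPW and 13.4 and 11.9 CPM in Runx3 +/+ (log2 difference 0.10 ± 0.13, SE). Pnp2, its close copy on the same chromosome, was at 0.623 to 0.754 CPM in Runx3 +/WRPW and at 0.187 and 0.959 CPM in Runx3 +/+. Reads that fit both copies could have been split or dropped, so the level of Pnp is uncertain.

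**Figure D2:**
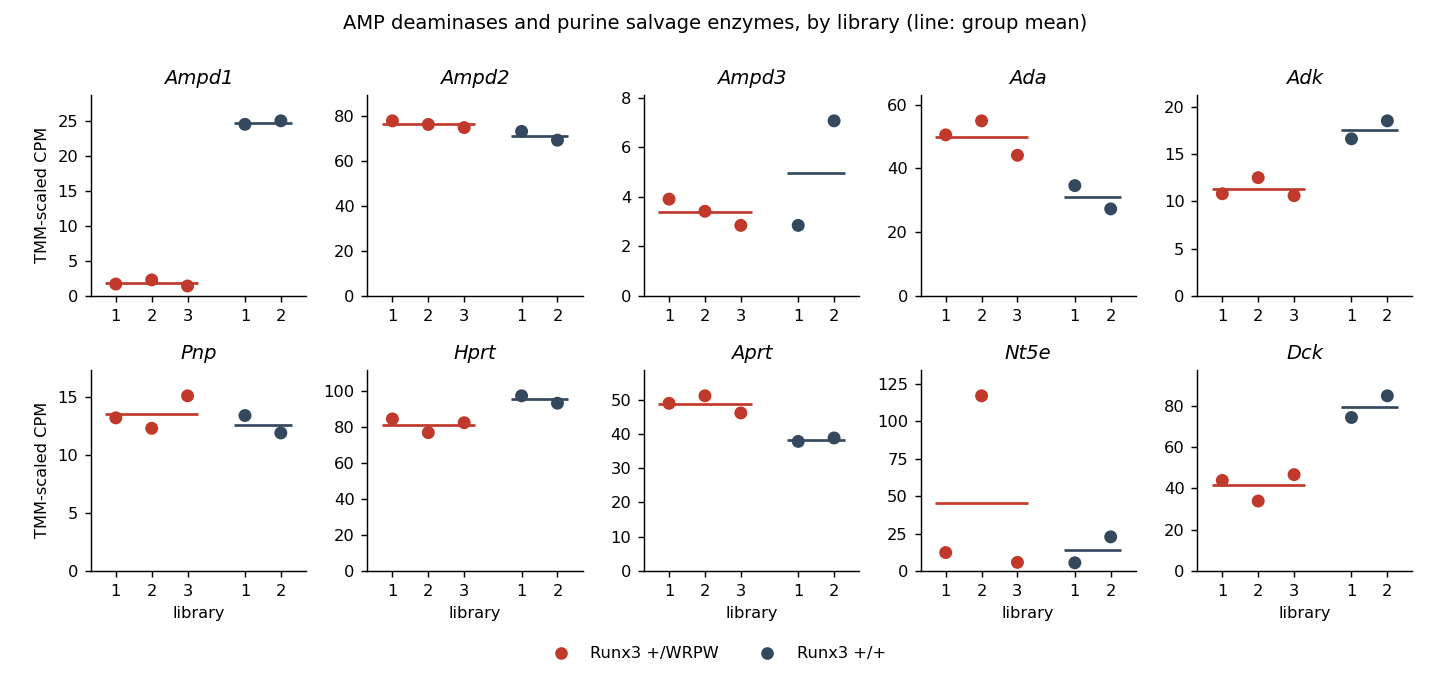
TMM-scaled CPM of the 10 genes in each library (points), Runx3 +/WRPW in red and Runx3 +/+ in dark blue, with group means as lines and every axis from 0. Ampd1, Adk and Dck lie lower and Ada and Aprt higher in all 3 Runx3 +/WRPW libraries, and Nt5e is high in Runx3 +/WRPW library 2 alone (117 CPM).

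The promoters of Dck and Ada are shown because these genes had the largest fitted drop after Ampd1 and the largest fitted rise among those whose libraries did not overlap. RefSeq windows on GRCm38.p6 (250 bases before to 50 after a transcription start) were found for 9 of the 10 genes, without Ampd1. They were searched on both strands for TGTGGT, the core letters bound by Runx proteins. Capitals mark a match, here on the minus strand of the gene.
Dck, chr5:88764763-88765062, plus strand: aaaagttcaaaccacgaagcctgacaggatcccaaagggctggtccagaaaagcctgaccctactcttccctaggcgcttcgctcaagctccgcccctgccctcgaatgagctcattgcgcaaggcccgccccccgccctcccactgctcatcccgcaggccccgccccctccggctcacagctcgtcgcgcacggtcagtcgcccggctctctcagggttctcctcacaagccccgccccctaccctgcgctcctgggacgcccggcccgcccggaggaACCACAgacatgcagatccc
Ada, chr2:163750190-163750489, minus strand: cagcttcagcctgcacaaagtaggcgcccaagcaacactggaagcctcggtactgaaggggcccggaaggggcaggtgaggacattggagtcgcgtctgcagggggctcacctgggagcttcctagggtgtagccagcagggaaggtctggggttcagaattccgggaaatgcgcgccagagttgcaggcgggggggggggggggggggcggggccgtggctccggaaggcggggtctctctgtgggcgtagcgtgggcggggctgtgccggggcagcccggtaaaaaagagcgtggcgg
The Dck window held 1 match, its first base 31 bases past the start, and the Ada window held none. Of 13 windows of the 9 genes, 2 held the letters, 1 of Dck and 1 of 3 of Ampd3, whereas 16.8% of all 32851 windows of the same length did. A match is a string of letters and not a measured site.

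Per kb of exon, Hprt was the highest of the 10 genes in both genotypes, with 62.9 ± 3.03 CPM per kb in Runx3 +/WRPW (SD, n = 3) and 73.8 ± 2.27 CPM per kb in Runx3 +/+ (SD, n = 2). Aprt came next in both, with 30.2 ± 1.55 and 23.7 ± 0.430 CPM per kb. Below them the order in Runx3 +/WRPW was Ada, Ampd2, Dck, Nt5e, Pnp, Adk, Ampd3 and Ampd1, and in Runx3 +/+ it was Dck, Ada, Ampd2, Ampd1, Pnp, Adk, Nt5e and Ampd3. Some neighbours had overlapping libraries. In Runx3 +/WRPW these were Dck and Nt5e (in this order in 2 of 3 libraries), Nt5e and Pnp (1 of 3) and Ampd3 and Ampd1 (2 of 3). In Runx3 +/+ they were Adk and Nt5e (1 of 2), Ada and Ampd2 (2 of 2) and Nt5e and Ampd3 (2 of 2). Where the libraries of a genotype differed in the order, it is not set. The place of Nt5e in Runx3 +/WRPW rests on library 2: its values of 1.43, 13.6 and 0.668 CPM per kb also overlapped those of Adk and Ampd3. Without that library, an alternative chosen after the data were seen, Nt5e averaged 1.05 CPM per kb and ranked 8, below Pnp (3.56 CPM per kb) and Adk (1.26 CPM per kb), and Ampd1 still ranked 10. With all libraries, Ampd1 ranked 10 of 10 in Runx3 +/WRPW and 6 of 10 in Runx3 +/+. The lengths matter for Adk, whose exon union of 8.53 kb is far longer than its longest coding transcript of 1.82 kb. With that length Adk ranked 7 in Runx3 +/WRPW and 6 in Runx3 +/+, instead of 8 in both, and Ampd1 ranked 10 and 7.

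Among 10062 candidate genes, the profiles most like that of Ampd1 over the 5 libraries, by Euclidean distance between centred log2 CPM, were those of Neil3 (distance 0.413), Tspan32 (0.444), S1pr1 (0.518), Igfbp4 (0.579) and Tnk2 (0.627). Neil3, a DNA glycosylase gene, was at 0.937, 1.62 and 1.06 CPM in Runx3 +/WRPW and at 15.1 and 13.5 CPM in Runx3 +/+. The other 9 genes of the group were much farther away, from 3.16 for Dck to 5.90 for Nt5e. Since the genotypes account for most of each such profile, likeness here is a description over 5 libraries.

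Within 200 kb of Ampd1 the files hold 9 other genes, 7 of them tested; this window was chosen after the data were seen. Dennd2c (chromosome 3, 103102647 to 103169738), a gene of the DENN domain family, begins 2.9 kb past the end of Ampd1 on the same strand. It was at 1.35, 1.99 and 1.33 CPM in Runx3 +/WRPW and at 9.34 and 8.83 CPM in Runx3 +/+. It fell by 2.56 ± 0.25 (SE) on the log2 scale, or 5.89-fold, with an edgeR adjusted p = 0.00325, in 3 of 3 Runx3 +/WRPW libraries. Without Runx3 +/+ library 1 or 2 the edgeR adjusted p was 0.0636 and 0.0760, with the log2 difference at -2.54 and -2.60. Sike1, a suppressor of antiviral kinase signalling 70.0 kb before the start of Ampd1, was 1.51-fold lower (58.1, 58.1 and 58.5 CPM in Runx3 +/WRPW, 79.0 and 96.4 CPM in Runx3 +/+, edgeR adjusted p = 0.0121), and its adjusted p was 0.0784 without Runx3 +/+ library 2. The closer Nras (6.0 kb) had a log2 difference of -0.33 ± 0.09 (SE) and did not pass (edgeR adjusted p = 0.0586), nor did Bcas2, Trim33 or Sycp1. Of the 7, 2 were thus called, or 28.6%, beside 13.6% of all genes. With the replicate number as a block, the edgeR adjusted p of Sike1 was 0.0521.

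**Figure D3:**
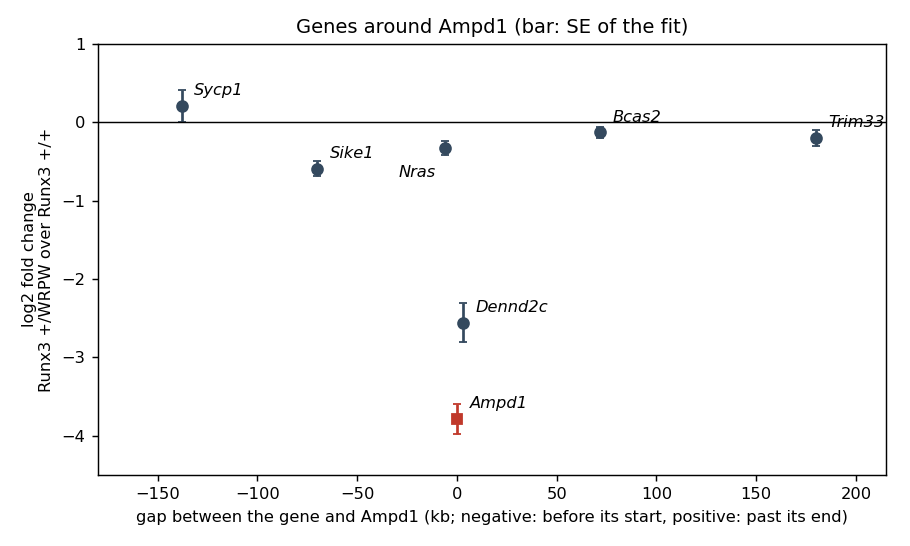
Fitted log2 fold change, Runx3 +/WRPW over Runx3 +/+, of 6 tested genes within 200 kb of Ampd1 (dots) and of Ampd1 (red square) against their gap to it in kb, with SE bars. Dennd2c, 2.9 kb away, lies at -2.56, and the other 5 between -0.59 and 0.21.

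To place these genes, 7 lists of purine and nucleotide genes were taken by role, with relatives such as the Ahcy-like genes included. Earlier results of these data were known when the lists were set, so their counts and shares are a description. Of 72 listed genes with a row, 54 were tested, and 14 of these (25.9%) passed, 3 higher and 11 lower, beside 13.6% of all genes; their median log2 fold change was -0.02, against 0.02 over all genes. In DESeq2, 21 passed, 8 higher and 13 lower, so that the balance of directions depended on the tool. DESeq2 called more genes in all, 3441 of 15462, with 1675 higher and 1766 lower. Without Runx3 +/WRPW libraries 1, 2 and 3 in turn, the number of listed genes that passed was 7, 10 and 9. Over all genes it was 768 of 13446, 1431 of 13303 and 950 of 13621.

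De novo purine synthesis showed no call, with 0 of 12 tested genes passing in either direction and a median of -0.09. At an unadjusted p under 0.05, a cut for which no share over all genes is given, there were 3 in edgeR, and DESeq2 called 1. Prps2, which makes the ribose phosphate donor, was at 179 ± 20.7 CPM in Runx3 +/WRPW and 174 ± 11.2 CPM in Runx3 +/+, and Impdh1, which opens the branch to GMP, at 170 ± 4.65 and 181 ± 2.74 CPM (SD, n = 3 and 2). Adenylate and guanylate kinases had 0 of 5 passing (median 0.04), with 0 at an unadjusted p under 0.05 in edgeR and 0 called by DESeq2. The mitochondrial Ak3 was at 71.4 ± 7.51 CPM in Runx3 +/WRPW and 69.2 ± 0.891 CPM in Runx3 +/+ (SD, n = 3 and 2). Purine breakdown and adenosine-linked methylation had 0 of 7 passing (median -0.03), with 2 at an unadjusted p under 0.05 and 2 called by DESeq2. The 2 most abundant were relatives of Ahcy, listed with it. Ahcyl2 was at 156 ± 11.8 and 131 ± 6.97 CPM and Ahcyl1 at 142 ± 4.70 and 144 ± 7.26 CPM in Runx3 +/WRPW and Runx3 +/+. Ahcy itself was at 8.52 ± 0.756 and 9.74 ± 0.949 CPM, and Xdh at 11.3 ± 2.24 and 17.4 ± 5.32 CPM, and neither passed.

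Deoxynucleotide supply differed most often. Of 10 tested genes 5 fell, 1 rose and 4 did not pass, with a median of -0.37. Rrm2, the subunit of ribonucleotide reductase made in S phase, was at 8.00, 8.53 and 8.19 CPM in Runx3 +/WRPW and at 59.7 and 61.6 CPM in Runx3 +/+, 7.37-fold lower (edgeR adjusted p = 7.08e-05), and it passed with any 1 library left out. Its partner Rrm1 was 1.66-fold lower (edgeR adjusted p = 0.0112), thymidylate synthase Tyms 2.97-fold lower (adjusted p = 0.00959) and thymidine kinase Tk1 2.11-fold lower (adjusted p = 0.00866). Dut, the dUTPase, was also lower, at 41.8 ± 5.26 CPM in Runx3 +/WRPW and 66.0 ± 0.736 CPM in Runx3 +/+ (edgeR adjusted p = 0.0150), and Rrm2b, the ribonucleotide reductase subunit of resting and stressed cells, was higher, at 27.8 ± 0.375 and 21.4 ± 1.65 CPM (edgeR adjusted p = 0.0450); both were named after their values were seen. The dividing-cell markers were 10 of 10 lower in the same libraries, and their part was not tested. Without Runx3 +/+ library 1 the adjusted p was 0.135 for Rrm1, 0.0782 for Tk1, 0.147 for Dut and 0.112 for Rrm2b, and without Runx3 +/+ library 2 it was 0.142, 0.115, 0.179 and 0.253, and 0.101 for Tyms. Rrm2b also lost its call without Runx3 +/WRPW library 1, 2 or 3 (adjusted p = 0.152, 0.0890 and 0.117), and Dut without library 1 (0.0580). With no low-count filter the adjusted p of Rrm2b was 0.0871. With the replicate number as a block, the edgeR adjusted p was 0.181 for Rrm2b and 0.0683 for Tk1.

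Genes of extracellular adenosine and nucleoside transport moved both ways, with 2 higher, 2 lower and 5 not passing of 9 tested and a median of 0.26. Cd38, a surface enzyme that consumes NAD, was at 45.8, 48.9 and 50.4 CPM in Runx3 +/WRPW and at 7.47 and 3.16 CPM in Runx3 +/+, 9.18-fold higher (edgeR adjusted p = 0.00372), and it passed with any 1 library left out. Entpd1, which encodes CD39 and makes the AMP that CD73 uses, was at 26.6, 21.9 and 10.9 CPM in Runx3 +/WRPW and at 3.22 and 1.60 CPM in Runx3 +/+, 8.31-fold higher (edgeR adjusted p = 0.0141). Adora2a, the main adenosine receptor of T cells, was at 3.66, 7.47 and 5.75 CPM in Runx3 +/WRPW and at 13.0 and 20.5 CPM in Runx3 +/+, 3.04-fold lower (edgeR adjusted p = 0.0288). The concentrative nucleoside transporter gene Slc28a2 was at 25.6, 28.9 and 33.4 CPM in Runx3 +/WRPW and at 41.4 and 48.0 CPM in Runx3 +/+, 1.53-fold lower (edgeR adjusted p = 0.0331). All 4 genes had no overlap between the genotypes, as had 48.5% of all genes tested. The 4 were named for passing in these same libraries, so nothing is read from this. Without Runx3 +/+ library 1 and 2 in turn, the adjusted p was 0.0914 and 0.187 for Entpd1, 0.0903 and 0.274 for Adora2a, and 0.127 and 0.288 for Slc28a2. It was 0.0532 and 0.0815 for Adora2a without Runx3 +/WRPW libraries 1 and 3, 0.0864 and 0.0725 for Slc28a2 without libraries 1 and 2, and 0.0676 for Entpd1 in limma-voom.

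Of 6 nucleotidase genes tested, Samhd1 included, 2 fell and 4 did not pass, with a median of 0.05. Samhd1, which breaks down deoxynucleoside triphosphates, was at 408, 337 and 280 CPM in Runx3 +/WRPW and at 766 and 497 CPM in Runx3 +/+, 1.85-fold lower and close to the threshold (edgeR adjusted p = 0.0488). It did not pass with any 1 library left out (adjusted p = 0.294 and 0.110 without Runx3 +/+ libraries 1 and 2, and 0.0619, 0.106 and 0.116 without Runx3 +/WRPW libraries 1, 2 and 3), nor with upper-quartile factors, no low-count filter or robust dispersion estimates (0.0566, 0.0854 and 0.0604). Nt5c3b was 1.35-fold lower (edgeR adjusted p = 0.0191), and did not pass without Runx3 +/+ library 2 (0.171) or without Runx3 +/WRPW library 1 or 3 (0.0563 and 0.0622). Of 5 subunit genes of AMP-activated protein kinase, the enzyme that senses AMP, 2 fell and 3 did not pass, with a median of 0.03. Prkag1 was 1.47-fold lower (74.7 ± 3.39 CPM in Runx3 +/WRPW and 109 ± 11.6 CPM in Runx3 +/+, edgeR adjusted p = 0.0113, and 0.0933 without Runx3 +/+ library 2). Prkab1 was 1.21-fold lower (61.3 ± 1.41 and 73.9 ± 2.67 CPM, edgeR adjusted p = 0.0363). With the replicate number as a block, the edgeR adjusted p was 0.103 for Nt5c3b and 0.172 for Prkab1. Without 1 library Prkab1 did not pass, with an adjusted p = 0.106 and 0.256 without Runx3 +/+ libraries 1 and 2, and 0.111, 0.0684 and 0.104 without Runx3 +/WRPW libraries 1, 2 and 3; it was 0.0860 with no low-count filter.

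**Figure D4:**
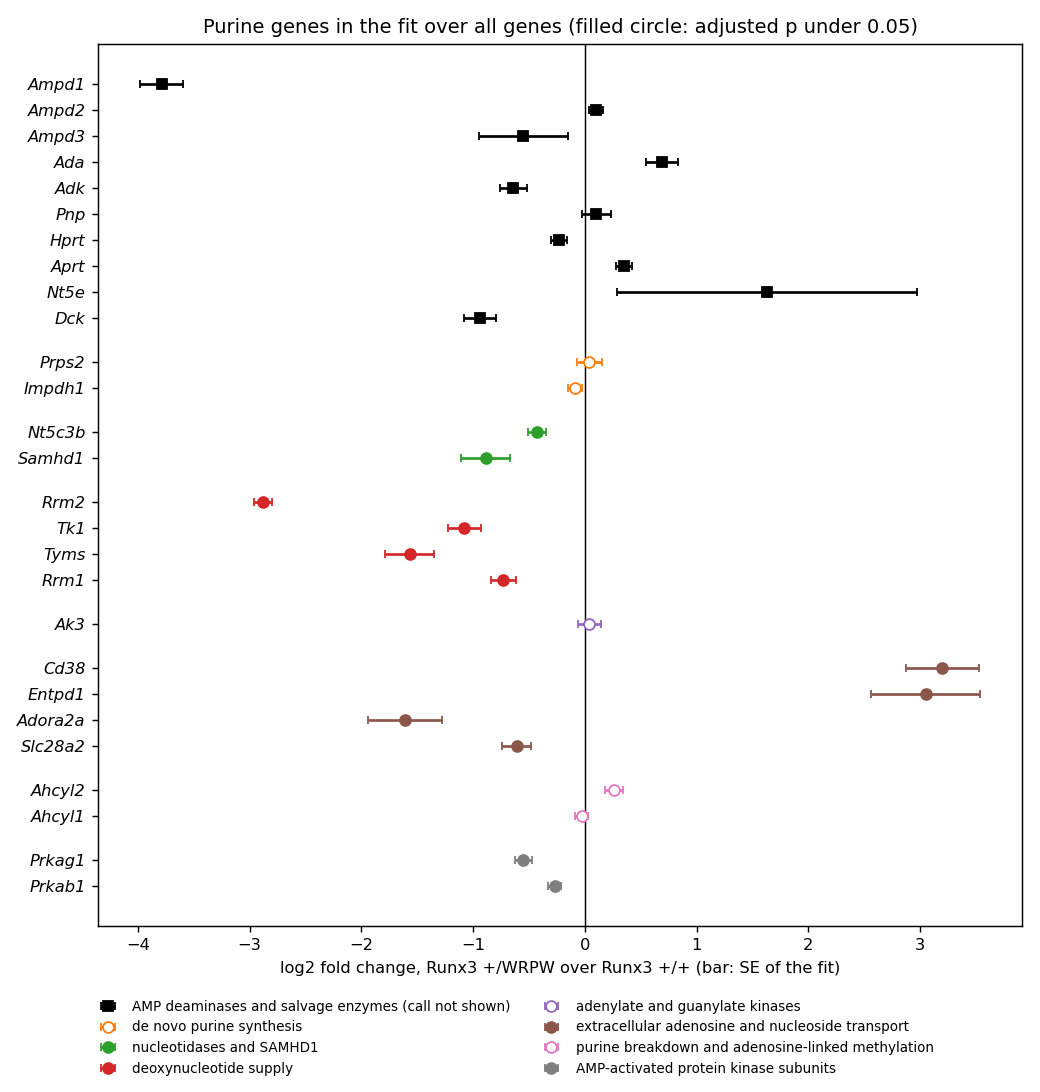
Fitted log2 fold change, Runx3 +/WRPW over Runx3 +/+, with SE bars, of the 10 AMP deaminase and salvage genes (black squares, given as a description) and of 17 named genes of the 7 pathway lists (circles, filled at an adjusted p under 0.05). Ampd1 is farthest to the left at -3.79, and Cd38 and Entpd1 farthest to the right at 3.20 and 3.05.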

How the data were processed

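RNA of flow-sorted mature CD8 SP thymocytes was sequenced in 5 libraries, grouped by the genotype label. Each library's deposited file holds raw read counts by gene symbol, which the authors left unscaled. The tools listed in the submitters' processing notes are featureCounts 2.0.8, HISAT2 2.2.1, cutadapt 4.0 and edgeR 3.36.0, with build mm10; settings, annotation and strand mode: not given in the sources used here. The file of Runx3 +/+ library 2 carries the number 3 in its header and that of Runx3 +/WRPW library 2 a general HISAT2 name; sample records were followed.

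The genotypes were compared with edgeR 4.0.16 in R 4.3.3 (quasi-likelihood test by glmQLFit and glmQLFTest; filterByExpr, minimum count 10; TMM factors between 0.981 and 1.034; 13666 genes tested, Benjamini-Hochberg adjustment over all of them, threshold 0.05), checked on simulated counts. SE is the absolute log2 fold change over the square root of F. As alternatives, each library was left out in turn, the replicate number was a block, dispersion was estimated robustly, the low-count filter was dropped or made stricter (at 1 CPM), TMM gave way to upper-quartile or RLE factors, and DESeq2 1.42.0 and limma-voom (limma 3.58.1) replaced edgeR. Coordinates are from RefSeq GRCm38.p6 (the assembly of mm10; 93.2% of rows matched), exon lengths from GENCODE M21. Libraries were not copies of each other: chi-square per gene, compared pairwise, was at least 14.2. A depth of 3 counts equals 0.0686 to 0.187 CPM; such values cover counting error only.

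The members, lists and tests were chosen with earlier results of these data known. Named were all members, up to 4 called genes per pathway list by p, or the 2 most abundant where none passed, and the 5 genes nearest to Ampd1 (mean log2 CPM not under 1, prior count 2, predicted models and receptor segments left out). Some items that this rule names are not reported here.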

Additional observations from a re-analysis of the deposited data

How the results depend on the processing

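Of 33 genes recomputed under each alternative, Rrm2 and Cd38 passed in all 13. Ampd1 did too, but it was chosen by its drop in these same libraries, so nothing is read from its calls. The number of all genes called, 1855, was 3441 in DESeq2, 1079 with no low-count filter and 754 with the replicate block, and ran from 277 to 1431 with 1 library left out. The fits with a lone Runx3 +/+ library assume that it varies like the other genotype. Their low-count filter was run anew and kept 18369 genes without library 1 and 18169 without library 2, against 13666 in the main fit. Adjusted p-values from those fits thus cover more genes, and a lost call there is not from the gene's own values alone. The median log2 fold change over all genes was 0.14 and 0.15 in them, against 0.02. Of the 10 salvage and deaminase genes, 5 were called, and 1 to 3 with 1 library left out: Ampd1 alone without Runx3 +/+ library 1 or 2, Ampd1 and Dck without Runx3 +/WRPW library 1, Ampd1, Adk and Dck without library 2, and Ampd1, Ada and Dck without library 3. Pathway genes called numbered 14 (3 higher), 21 in DESeq2 (8 higher), and 2 to 10 with 1 library left out. The deviations of same-numbered libraries correlated at -0.05 and 0. With only 2 Runx3 +/+ libraries, whose deviations mirror each other, this cannot exclude a pairing or shared batch. With the replicate numbers as a block, 3 of the 10 genes were called (Ampd1, Dck and Nt5e). Runx3 +/WRPW library 3 has no partner in that fit, so its contrast rests on libraries 1 and 2. The file of Runx3 +/+ library 2 carries the number 3, so the pairing itself is uncertain. Nt5e was at 12.3 and 5.46 CPM in Runx3 +/WRPW and Runx3 +/+ library 1, and at 117 and 22.8 CPM in library 2. The cause of its call was not tested.

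Signs changed for genes that were not called: Ampd3 (-1.09 to 0.24 with 1 library left out, 0.24 without Runx3 +/+ library 2), Nt5e (-0.64 to 2.98, -0.64 without Runx3 +/WRPW library 2), Prps2 (up to 0.13 with 1 library left out, -0.03 with the replicate block and without Runx3 +/+ library 2, 0 and -0.02 without Runx3 +/WRPW libraries 1 and 3), Ak3 (up to 0.10 with 1 library left out, -0.04 with the block and without Runx3 +/WRPW library 3, 0 without Runx3 +/+ library 1) and Ahcyl1 (0 with upper-quartile factors). The causes were not tested. With 2 and 3 libraries, differences of the size seen for Aprt or Hprt were at the edge of what could be called: Aprt lost its call without any 1 library, and Hprt passed in DESeq2 only (adjusted p = 0.0157).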
